A study of Mus musculus with 14 samples.

Results

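The ADAM, ADAMTS and ADAMTS-like genes were examined in 14 RNA-sequencing libraries of Ocy454 cells, an osteocyte-like line from mouse that is conditionally immortalized. Members were all genes whose symbol begins with Adam, Adamts or Adamtsl followed by a digit, which gave 57 of the 39179 genes measured: 33 ADAM, 19 ADAMTS and 5 ADAMTS-like genes. All Ocy454 cells carry a thermosensitive large T antigen, divide at 33 °C and differentiate at 37 °C, so every group comes from this line. The differentiation experiment has 2 libraries at each of days 1, 7, 10 and 14 at 37 °C. The sorting experiment has 3 libraries of CD61high and 3 of CD61low cells, taken at day 17 from the upper and lower 10% of live cells by surface signal of CD61, the integrin beta 3 chain. No group carries a further deletion or agent.

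ADAM proteases are mostly membrane-anchored enzymes with a zinc-dependent catalytic domain and a disintegrin domain that can bind integrins, and several of them release the outer parts of cell-surface proteins, a process called shedding. ADAMTS proteases are secreted, bind the extracellular matrix through thrombospondin-type repeats and cut matrix proteins such as aggrecan, versican and procollagens. ADAMTS-like proteins have the matrix-binding repeats but lack the catalytic domain, and several bind fibrillin microfibrils. In the skeleton, the aggrecan-cutting ADAMTS proteases are best known from cartilage, and several other ADAM genes are known from sperm.

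Reads counted on genes, recovered from the deposited CPM values (reads scaled to a common library total), ranged from 27518605 to 34311238 per differentiation library, and estimated counts from 18815602 to 19220064 per sorted library. In the differentiation libraries 3 reads are worth 0.0874 to 0.109 CPM, the level that a count of 0 allows when only counting error is considered. The 11 osteoblast and osteocyte markers summed to between 26670 and 36640 CPM over the days, to 17690 to 21624 CPM in CD61low cells and to 50273 to 52986 CPM in CD61high cells. Most of each sum is *Col1a1*, which went from 34732 and 34687 CPM at day 1 to 27852 and 22633 CPM at day 14, and of the 11 markers 9 were higher in both libraries of day 14 than at day 1, such as *Dmp1* with 52.1 and 57.6 against 0.915 and 1.00 CPM, while *Col1a1* and *Pdpn* were lower, *Pdpn* with 19.4 and 19.2 against 28.4 and 28.0 CPM. In the sort *Pdpn* went against the sum, with 15.2, 16.2 and 15.2 CPM in CD61low and 11.7, 12.1 and 9.53 CPM in CD61high cells. The 5 chondrocyte markers summed to 37.4 to 47.1 CPM in CD61low and 96.4 to 113 CPM in CD61high cells, with *Matn1* at 0 in CD61low and *Col10a1* at 0 in CD61high cells. *Sox9* made up most of this, at 32.3 to 40.4 and 88.1 to 101 CPM, while *Acan* overlapped, at 4.41 to 6.69 and 5.99 to 9.97 CPM. Of 6 markers of macrophages and blood cells, 5 were measured, and they summed to 17.1 to 22.7 CPM in CD61low and 12.5 to 13.2 CPM in CD61high cells, with *Ptprc* at 0 in the latter. In the sorted libraries the platelet markers summed to 5.87 to 7.18 CPM, nearly all of it *Itga2b* at 5.74 to 7.18 CPM, with *Gp9* and *Gp1ba* at 0. The 5 osteoclast markers summed to 17.9 to 24.6 CPM, nearly all of it *Ctsk* at 17.9 to 24.4 CPM, with *Calcr*, *Ocstamp* and *Dcstamp* at 0. The 4 endothelial markers summed to at most 0.861 CPM and the 4 adipocyte markers to at most 0.293 CPM in any sorted library. The part of these marker differences in the results on the proteases was not tested, and in bulk RNA fewer cells of a type and less RNA per cell cannot be told apart.

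Of the 57 members, 14 had 0 reads in all 14 libraries. They were 12 ADAM genes (*Adam2*, *Adam6a*, *Adam7*, *Adam18*, *Adam20*, *Adam24*, *Adam26a*, *Adam26b*, *Adam28*, *Adam29*, *Adam34* and *Adam39*), several of which are testis genes, and the secreted proteases *Adamts19* and *Adamts20*. A further 17 had some reads but stayed low, with at most 2.20 CPM in a differentiation library (*Adam11*) and 4.21 CPM in a sorted library (*Adam8*). The other 26, which are 8 ADAM, 13 ADAMTS and all 5 ADAMTS-like genes, had a mean of at least 5 CPM in either experiment or were called in a comparison, and they are described by name. Tests were run on 29 members in the differentiation experiment and on 28 in the sort, the ones that passed the filter on low values.

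The start regions of a few members are shown first, because results below turn on where transcription of a member was measured or on genes that moved together. Each window holds the 250 bases before and the 50 bases after the annotated 5′ end of a transcript, read from the GRCm39 genome, 5′ to 3′ on the gene's strand. Capitals mark matches on either strand to any of 7 short motifs: RUNX (TGTGGT), AP-1 (TGANTCA), the hypoxia response core (ACGTG), the cAMP response half-site (TGACG), TEAD (GGAATG), the GC box (GGGCGG) and the TATA box (TATAAA). The hypoxia and cAMP motifs can overlap each other. A match is a description of the letters, and no factor was measured.

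*Adamtsl1* is shown at the start of its longest coding transcript, which is not the most upstream of its annotated starts, and at the start of the transcript that held most of its counts, because these are far apart.
Adamtsl1-203, longest coding transcript, chr4:85971675-85971974, plus strand: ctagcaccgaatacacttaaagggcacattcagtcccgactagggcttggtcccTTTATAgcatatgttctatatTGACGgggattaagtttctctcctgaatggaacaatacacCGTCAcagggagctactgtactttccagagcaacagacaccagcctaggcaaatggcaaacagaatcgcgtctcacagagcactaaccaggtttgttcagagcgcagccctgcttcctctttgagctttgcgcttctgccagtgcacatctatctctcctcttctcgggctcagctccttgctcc
Adamtsl1-202, most counted transcript, chr4:86194753-86195052, plus strand: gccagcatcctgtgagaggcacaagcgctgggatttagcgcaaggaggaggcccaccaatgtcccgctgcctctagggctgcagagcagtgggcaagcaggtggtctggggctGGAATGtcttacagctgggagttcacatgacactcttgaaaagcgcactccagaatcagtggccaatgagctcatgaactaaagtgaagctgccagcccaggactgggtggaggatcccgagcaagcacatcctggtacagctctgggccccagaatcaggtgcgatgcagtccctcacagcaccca
The proteases *Adam12*, *Adam19* and *Adamts12* are shown as members called higher both at day 14 and in CD61high cells.
Adam12-201, chr7:133826777-133827076, minus strand: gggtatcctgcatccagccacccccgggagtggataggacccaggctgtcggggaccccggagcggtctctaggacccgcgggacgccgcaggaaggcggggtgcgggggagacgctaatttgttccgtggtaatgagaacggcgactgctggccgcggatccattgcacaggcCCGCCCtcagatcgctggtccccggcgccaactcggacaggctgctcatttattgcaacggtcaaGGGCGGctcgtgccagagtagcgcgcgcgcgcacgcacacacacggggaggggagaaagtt
Adam19-201, chr11:45946525-45946824, plus strand: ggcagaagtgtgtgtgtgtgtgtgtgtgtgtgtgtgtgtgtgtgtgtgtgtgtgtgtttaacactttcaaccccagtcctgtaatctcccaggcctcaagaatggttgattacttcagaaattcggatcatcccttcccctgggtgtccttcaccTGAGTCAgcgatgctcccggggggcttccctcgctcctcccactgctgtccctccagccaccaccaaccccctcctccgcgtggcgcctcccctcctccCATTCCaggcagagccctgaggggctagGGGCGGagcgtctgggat
Adamts12-201, chr15:11064645-11064944, plus strand: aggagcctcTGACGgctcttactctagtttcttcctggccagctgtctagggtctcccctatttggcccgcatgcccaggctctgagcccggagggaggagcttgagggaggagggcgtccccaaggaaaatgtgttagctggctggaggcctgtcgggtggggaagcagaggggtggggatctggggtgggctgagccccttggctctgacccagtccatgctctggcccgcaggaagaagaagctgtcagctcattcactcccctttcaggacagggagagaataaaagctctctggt
The aggrecan- and versican-cutting protease *Adamts1* is shown as the member called lower both at day 14 and in CD61high cells.
Adamts1-201, chr16:85599960-85600259, minus strand: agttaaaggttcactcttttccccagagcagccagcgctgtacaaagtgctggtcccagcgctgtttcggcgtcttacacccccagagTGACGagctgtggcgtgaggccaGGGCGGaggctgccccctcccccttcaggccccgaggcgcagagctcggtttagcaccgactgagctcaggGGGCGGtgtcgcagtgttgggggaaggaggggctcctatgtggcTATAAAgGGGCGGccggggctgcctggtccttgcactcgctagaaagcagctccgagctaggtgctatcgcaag

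At the start of the most counted transcript of the 7 members called higher in both experiments, 3 windows held a GC box (*Adam12*, *Adam19* and *Adamts9*), 2 a cAMP half-site (*Adamts9* and *Adamts12*), 2 a TEAD motif (*Adam19* and *Adamtsl1*), 1 an AP-1 motif (*Adam19*), 1 a hypoxia core (*Adamts17*), and none a RUNX or TATA motif. The window of Adamtsl1-203, not in this count, held cAMP half-sites and a TATA box. Over the windows of all 12077 genes tested in the sort, 58.3% held a GC box, 29.4% a cAMP half-site, 12.6% a TEAD motif, 5.15% an AP-1 motif, 25.5% a hypoxia core, 13.2% a RUNX motif and 7.87% a TATA box. No motif stood in the window of *Adamts18*.

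Differentiation was compared first over its whole length. At day 14 against day 1, 15 of the 29 members tested were called (9 higher and 6 lower), where a call is a Benjamini-Hochberg adjusted p below 0.01 in limma's test with a Log2FC above 1 or below -1. Over all 12725 genes tested, 13.4% were called, 7.51% higher and 5.90% lower. The members called higher were *Adamtsl1*, *Adam12*, *Adamts18*, *Adamtsl2*, *Adamts12*, *Adamts17*, *Adam19*, *Adamts15* and *Adamts9*, and those called lower were *Adamtsl3*, *Adam23*, *Adamts4*, *Adamts16*, *Adamts5* and *Adamts1*. With no threshold on the fold, 26 of the 29 passed the test, beside 68.6% of all genes. The median Log2FC of the members tested was 0.24, and that of all genes -0.03. Fold changes of the days are on the log2(CPM + 1) scale, which understates changes at low CPM.

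**Figure D1:**
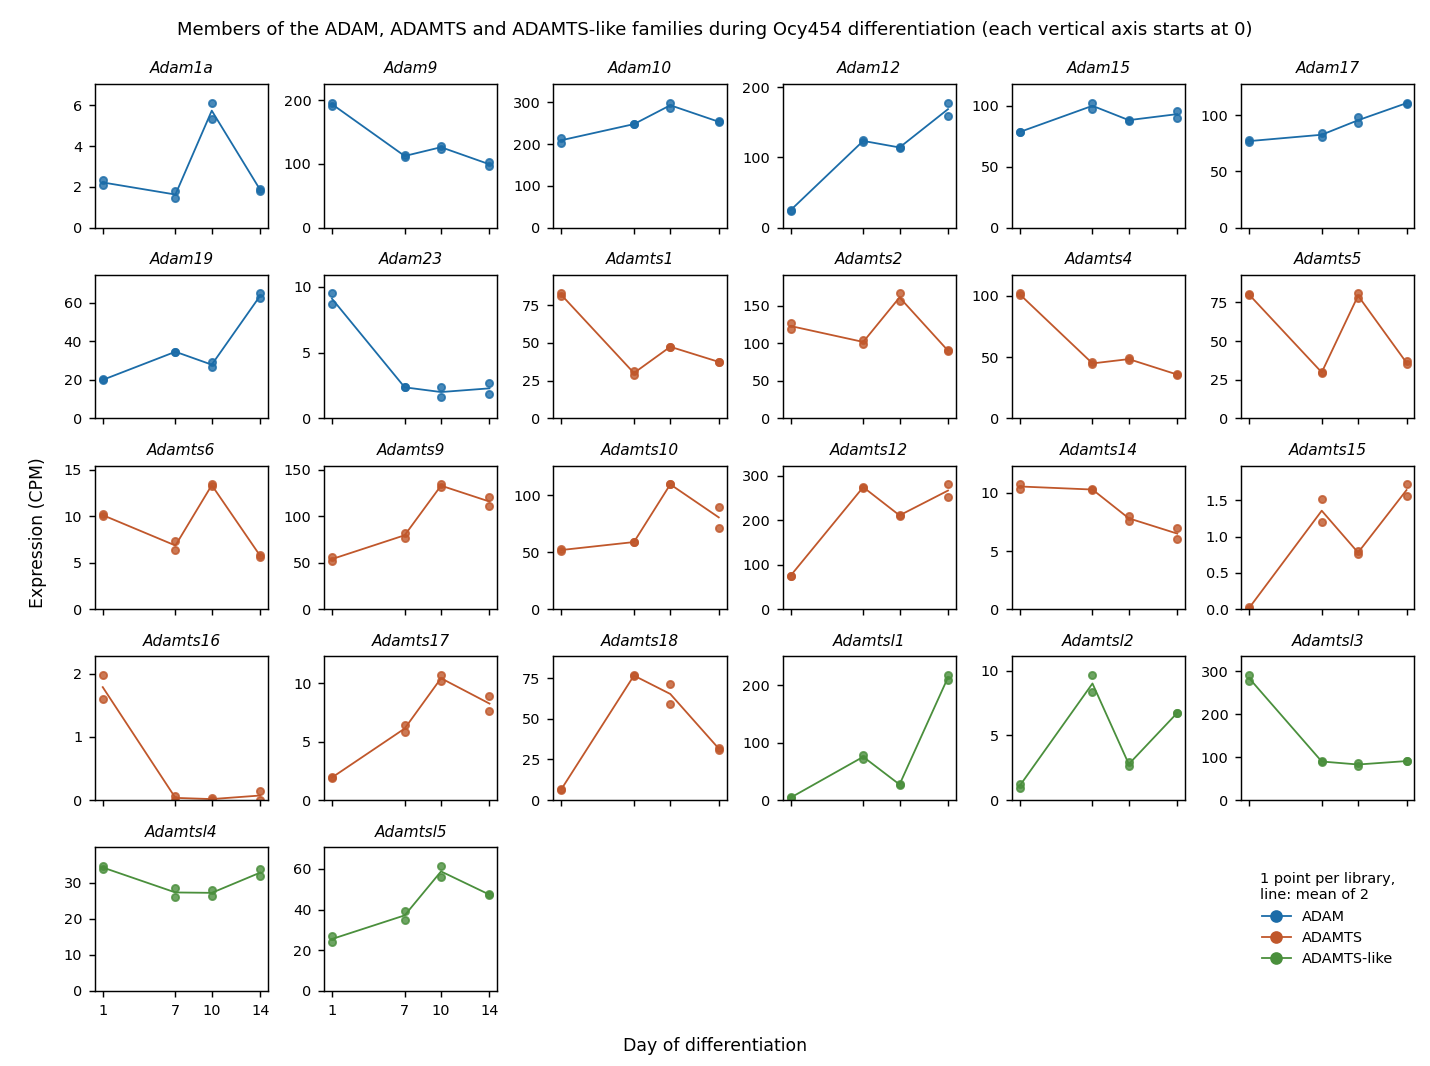
Expression of the 26 named members at days 1, 7, 10 and 14 of Ocy454 differentiation, in CPM on a linear vertical axis that starts at 0 in each panel; each point is 1 of the 2 libraries of a day and the line joins their means. *Adam12*, *Adam19* and *Adamtsl1* were highest at day 14, *Adamtsl3*, *Adamts4* and *Adam23* at day 1, *Adam1a* at day 10, and *Adamts5* at days 1 and 10.

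The membrane ADAM genes *Adam9*, *Adam10*, *Adam15* and *Adam17* were above 76 CPM in every differentiation library. *Adam10*, the main sheddase of Notch receptors and cadherins, read 203 and 215 CPM at day 1, 248 and 247 CPM at day 7, 287 and 299 CPM at day 10 and 254 and 253 CPM at day 14. Its libraries did not overlap between day 1 and day 14, and its Log2FC of 0.28 passed the test without reaching the fold threshold (standard error 0.04; limma adjusted p = 2.8e-07). *Adam17*, which sheds TNF and ligands of the EGF receptor, rose from 77.9 and 76.2 CPM at day 1 to 110 and 111 CPM at day 14, a Log2FC of 0.52. *Adam15*, whose protein carries an integrin-binding disintegrin domain, was at 78.5 CPM in both libraries of day 1 and at 90.3 and 96.0 CPM at day 14, with a Log2FC of 0.24 that also passed. *Adam9* (meltrin gamma), a sheddase of the same membrane group, went the other way, from 191 and 196 CPM to 102.6 and 96.2 CPM, a Log2FC of -0.96 that passed the test just short of the fold threshold.

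*Adam12* and *Adam19*, membrane proteases of mesenchymal and muscle cells, rose. *Adam12* (meltrin alpha) was at 24.2 and 25.1 CPM at day 1, 122 and 125 CPM at day 7, 114 and 115 CPM at day 10 and 178 and 160 CPM at day 14. It was 5.02-fold higher at day 7 than at day 1 and 6.86-fold higher at day 14, with a Log2FC of 2.73 (standard error 0.05; limma adjusted p = 8.3e-26). *Adam19* (meltrin beta), a sheddase of neuregulin, was at 19.7 and 20.3 CPM at day 1, 34.5 and 34.7 CPM at day 7, 26.6 and 29.2 CPM at day 10 and 64.8 and 62.6 CPM at day 14. Most of its rise thus fell between day 10 and day 14, a Log2FC of 1.17 (adjusted p = 1.3e-14 in limma), while it passed the test downward from day 7 to day 10 at -0.30. *Adam23*, a member without catalytic activity that binds integrins, fell from 8.71 and 9.50 CPM at day 1 to 2.37 and 2.36 CPM at day 7 and stayed between 1.61 and 2.68 CPM afterwards. *Adam1a*, a relative of the sperm fertilin chain, was below 2.4 CPM at days 1, 7 and 14 but reached 6.14 and 5.35 CPM at day 10, so that it was called higher at day 10 against day 7 and lower at day 14 against day 10.

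The proteases that cut aggrecan and versican were not moved alike. *Adamts4* fell from 100 and 102 CPM at day 1 to 43.9 and 45.6 CPM at day 7 and 35.6 and 35.8 CPM at day 14, a Log2FC of -1.48 (adjusted p = 1.3e-19 in limma). *Adamts1* fell from 82.8 and 81.1 CPM to 31.6 and 28.6 CPM at day 7, stood at 47.6 and 47.4 CPM at day 10 and ended at 37.2 and 37.7. *Adamts5* took the same turns with a larger return at day 10: 80.1 and 80.0 CPM at day 1, 30.3 and 29.2 CPM at day 7, 77.8 and 80.7 CPM at day 10 and 37.0 and 34.9 CPM at day 14. It was called in all 3 steps, lower at day 7 (Log2FC -1.40), higher at day 10 (1.38) and lower at day 14 (-1.12), and its values at day 10 overlapped those at day 1. *Adamts9*, which also cuts versican, rose from 52.0 and 55.8 CPM to 120 and 111 CPM at day 14, with its highest values, 134 and 131, at day 10. *Adamts15* had 0 and 0.0314 CPM at day 1, which is 0 and 1 read, and between 0.755 and 1.72 CPM in every later library, a Log2FC of 1.38 at day 14 against day 1 that was 6.46 in a count test on the recovered reads, a fitted value that rests on the 1 read at day 1.

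The cartilage-matrix protease *Adamts12*, which cuts COMP, was the most expressed of the ADAMTS members called higher. Its libraries read 74.7 and 75.8 CPM at day 1, 274 and 276 CPM at day 7, 212 and 210 CPM at day 10 and 281 and 253 CPM at day 14. The Log2FC was 1.85 at day 7 and 1.81 at day 14 against day 1 (adjusted p = 3.6e-23 at day 14 in limma). *Adamts18*, whose substrates are little known, rose from 7.05 and 6.12 CPM to 76.8 and 76.4 CPM at day 7, 11.6-fold, then read 59.3 and 71.2 CPM at day 10 and 31.1 and 32.3 CPM at day 14. It was called lower at day 14 against day 10 (Log2FC -1.01) and still higher than at day 1 (2.11). Its closest relative, *Adamts16*, went from 1.98 and 1.60 CPM at day 1 to between 0 and 0.145 CPM in every later library, a Log2FC of -1.38 at day 14 against day 1 that was -4.67 in the count test. *Adamts17*, an orphan protease linked to fibrillin matrix, rose from 1.89 and 1.98 CPM to 5.79 and 6.44 CPM at day 7 and 8.86 and 7.63 CPM at day 14.

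Of the procollagen N-proteinases, which trim the amino end of fibrillar procollagens, *Adamts2* read 127 and 120 CPM at day 1, 99.8 and 104.2 CPM at day 7, 156 and 167 CPM at day 10 and 91.2 and 89.5 CPM at day 14, and its Log2FC of -0.44 over the whole course passed the test. *Adamts14* fell from 10.4 and 10.7 CPM to 6.995 and 5.996, a Log2FC of -0.63. Of the fibrillin-related pair, *Adamts10* was highest at day 10, with 110 CPM in both libraries against 50.9 and 53.1 at day 1, and ended at 90.03 and 71.4 CPM. *Adamts6* was also highest at day 10, at 13.3 and 13.4 CPM, and was called lower from there to day 14 at 5.89 and 5.60 CPM.

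On the log2(CPM + 1) scale the ADAMTS-like genes held the largest rise of the members and one of the larger falls at day 14 against day 1, while in the ratio of CPM and in the count test the rise of *Adamts15* from 1 read was larger. *Adamtsl1* (punctin) read 3.69 and 4.64 CPM at day 1, 78.8 and 72.0 CPM at day 7, 28.8 and 25.6 CPM at day 10 and 218 and 210 CPM at day 14. It was called in every step, with a Log2FC of 3.89 at day 7, -1.44 at day 10 and 2.93 at day 14, each against the time point before, and 5.38 over the whole course (standard error 0.07; limma adjusted p = 2.9e-28). *Adamtsl2*, which binds fibrillin and latent TGF beta, showed the same turns at a lower level, from 0.974 and 1.25 CPM to 9.66 and 8.38 CPM at day 7, 2.92 and 2.64 CPM at day 10 and 6.73 and 6.76 CPM at day 14. *Adamtsl3* fell from 277 and 290 CPM at day 1 to 90.4 and 89.1 CPM at day 7 and was at 89.8 and 91.6 CPM at day 14, a Log2FC of -1.63. *Adamtsl4*, which also binds fibrillin, was at 33.9 and 34.6 CPM at day 1 and 31.9 and 33.7 CPM at day 14, and its Log2FC of -0.06 did not pass. *Adamtsl5* rose from 27.2 and 23.8 CPM to 47.4 and 47.1, with 61.3 and 56.1 CPM at day 10.

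By steps, the calls among the 29 members tested were 13 at day 7 against day 1 (7 higher and 6 lower, with 9.11% of all genes called, 4.49% higher and 4.62% lower), 4 at day 10 against day 7 (2 higher and 2 lower, with 2.22% of all genes called, 1.43% higher and 0.786% lower) and 7 at day 14 against day 10 (3 higher and 4 lower, with 2.96% of all genes called, 2.09% higher and 0.872% lower). The 4 calls of the middle step were *Adam1a* and *Adamts5* higher and *Adamtsl1* and *Adamtsl2* lower. The 7 of the last step were *Adam19*, *Adamtsl1* and *Adamtsl2* higher and *Adam1a*, *Adamts5*, *Adamts6* and *Adamts18* lower. The steps share the libraries of the days between them, so a value that is high at day 10 enters one step with one sign and the next with the other. With no threshold on the fold, 23, 20 and 22 members passed in these steps, beside 56.5%, 48.7% and 52.8% of all genes.

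Summed over each family, the 33 ADAM genes read 610 and 627 CPM at day 1 and 808 and 785 CPM at day 14. The 19 ADAMTS genes read 600 and 599 CPM at day 1, 880 and 899 CPM at day 10 and 749 and 688 CPM at day 14. The 5 ADAMTS-like genes read 343 and 355 CPM at day 1, 206 and 191 CPM at day 10 and 393 and 389 CPM at day 14, which hides an exchange between members: *Adamtsl3* made up most of the sum at day 1 and *Adamtsl1* at day 14.

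In the sorted cells, 10 of the 28 members tested were called between CD61high and CD61low cells (8 higher and 2 lower in CD61high), at an adjusted p below 0.01 in edgeR's quasi-likelihood test and a Log2FC above 1 or below -1, and 9.22% of the 12077 genes tested were called, 4.84% higher and 4.37% lower. Higher in CD61high cells were *Adamts17*, *Adamts18*, *Adamts12*, *Adam12*, *Adam19*, *Adamts10*, *Adamtsl1* and *Adamts9*, and lower were *Adamts1* and *Adamts14*. With no threshold on the fold, 18 passed, beside 35.4% of all genes. The median Log2FC of the members tested was 0.19 and that of all genes 0.00. The balance of directions depended on the scaling: TMM factors were 0.895 to 0.909 in CD61high and 1.10 to 1.13 in CD61low libraries, and scaling by library size alone, which lowers every Log2FC by 0.30, called 13 members, 7 higher and 6 lower. The calls gained were *Adam1a*, *Adamts5*, *Adamts7* and *Adamtsl4* lower, and the call lost was *Adamts9*. This scaling shifts all genes alike, and the share of all genes called under it is not given here. The split into 7 and 6 is therefore no result about the members alone.

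**Figure D2:**
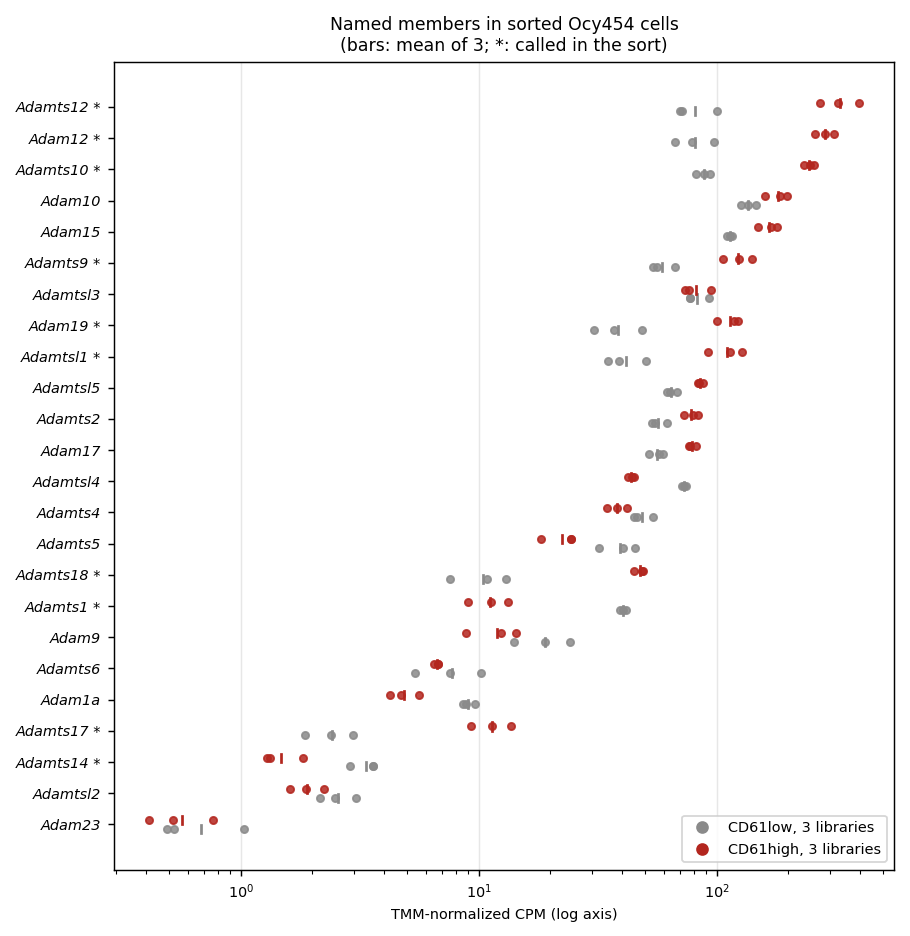
Expression of the 24 named members that were tested in sorted Ocy454 cells, in TMM-normalized CPM on a log axis; each point is a library (grey CD61low, red CD61high), the short bars are means of 3, and an asterisk marks a called member. The 8 members called higher in CD61high cells and the 2 called lower, *Adamts1* and *Adamts14*, have no overlap between their grey and red points.

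Among the members, secreted proteases gave the largest differences of the sort. *Adamts12* read 71.3, 70.1 and 101 CPM in CD61low and 396, 271 and 323 CPM in CD61high cells, 4.09-fold higher, with a Log2FC of 2.03 (standard error 0.16; edgeR adjusted p = 5.3e-06). *Adamts18* read 10.8, 7.55 and 12.99 CPM in CD61low and 49.1, 45.0 and 48.4 CPM in CD61high cells, a Log2FC of 2.18. *Adamts17* had the largest Log2FC of the members, 2.24, at a low level of 1.87, 2.39 and 2.98 CPM against 13.7, 9.27 and 11.4 CPM. In these 3 genes the lowest CD61high library stood over 2 times above the highest CD61low library. *Adamts9* read 56.0, 53.9 and 67.2 CPM in CD61low and 141, 106 and 124 CPM in CD61high cells, and its Log2FC of 1.07 was 0.76 when libraries were scaled by size alone. *Adamts10*, the fibrillin-related protease, read 88.9, 81.7 and 93.8 CPM against 233, 246 and 257 CPM, a Log2FC of 1.48 with the smallest spread of this group (standard error 0.08; edgeR adjusted p = 4.2e-07).

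*Adam12* and *Adam19* were higher as well. *Adam12* read 79.2, 67.0 and 97.8 CPM in CD61low and 312, 259 and 286 CPM in CD61high cells, a Log2FC of 1.81 (adjusted p = 2.2e-06 in edgeR), and *Adam19* read 37.0, 30.6 and 48.4 CPM against 123, 100 and 118 CPM, a Log2FC of 1.56. *Adam10*, *Adam15* and *Adam17* passed the test with smaller Log2FC of 0.41, 0.54 and 0.49. None of these 3 passed with scaling by library size alone, nor did *Adamts2* (Log2FC 0.46) or *Adamtsl5* (0.40), although all 5 kept their direction. *Adam9* read 14.1, 24.2 and 18.9 CPM in CD61low and 8.86, 12.4 and 14.4 CPM in CD61high cells, and its libraries overlapped. In the differentiation experiment, which was quantified differently, *Adam9* was never below 96.2 CPM. Transcripts of the sorted files that had no match in the annotation used here held 0.57% to 0.70% of the counts and were assigned to no gene, so a sum in the sort can be incomplete, and whether this touches *Adam9* was not tested.

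Of the aggrecan- and versican-cutting proteases, *Adamts1* was the member most reduced in CD61high cells, with 41.4, 39.3 and 40.3 CPM in CD61low and 13.3, 8.98 and 11.2 CPM in CD61high cells. It was 3.61-fold higher in CD61low cells, a Log2FC of -1.85 (standard error 0.13; edgeR adjusted p = 1.8e-06). *Adamts5* passed the test at a Log2FC of -0.82, from 32.1, 45.4 and 40.6 CPM to 24.3, 18.3 and 24.4 CPM. *Adamts4* had no overlap between the groups, at 45.2, 46.4 and 54.1 CPM against 41.9, 34.7 and 38.2 CPM, but its Log2FC of -0.34 did not pass (adjusted p = 0.015 in edgeR). The procollagen N-proteinase *Adamts14* read 2.87, 3.61 and 3.61 CPM in CD61low and 1.29, 1.32 and 1.82 CPM in CD61high cells, a Log2FC of -1.18 (adjusted p = 0.0020 in edgeR), and it no longer passed without CD61low replicate 2 (adjusted p = 0.011). *Adam1a* passed at -0.89, from 8.61, 9.62 and 8.84 CPM to 5.63, 4.72 and 4.24 CPM.

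*Adamtsl1* read 38.9, 35.0 and 50.3 CPM in CD61low and 128, 91.7 and 113 CPM in CD61high cells, a Log2FC of 1.42 (adjusted p = 2.8e-05 in edgeR). *Adamtsl4* read 71.5, 74.1 and 72.9 CPM in CD61low and 42.5, 44.8 and 44.2 CPM in CD61high cells, and its Log2FC of -0.73 passed the test. *Adamtsl3* read 77.5 to 92.9 CPM in CD61low and 73.9 to 94.9 CPM in CD61high cells, and its Log2FC of -0.02 changed sign when single libraries were left out. *Adamtsl2*, *Adamts6* and *Adam23* overlapped between the groups, and *Adamts15* and *Adamts16* were below the filter in the sort, with at most 0.294 and 0.633 CPM in any library.

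Beside the whole course of differentiation, 7 of the 8 members called higher in CD61high cells had also been called higher at day 14 against day 1, all except *Adamts10*, whose Log2FC there was 0.61. These 7 are 87.5% of the sort calls and 87.5% of the day 14 calls among members tested in both. Over all 11445 genes tested in both, 362 were called higher in both, 64.6% of the 560 called higher in the sort and 41.9% of the 864 called higher at day 14. *Adamts1* was called lower in both, 50% of the 2 sort calls and 20% of the 5 day 14 calls among members tested in both. Over all genes tested in both, 207 were called lower in both, 41.2% of the 502 called lower in the sort and 32.5% of the 637 called lower at day 14. The members called lower at day 14 but not in CD61high cells were *Adamtsl3*, *Adam23*, *Adamts4*, *Adamts5* and *Adamts16*, the last of which was not tested in the sort. With scaling by library size alone *Adamts5* was called lower in the sort as well, at -1.12. *Adamtsl2* was called higher at day 14, at 1.88, and had a Log2FC of -0.43 in the sort that did not pass. The difference between the experiments was not tested for any member, since they were quantified with different tools.

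**Figure D3:**
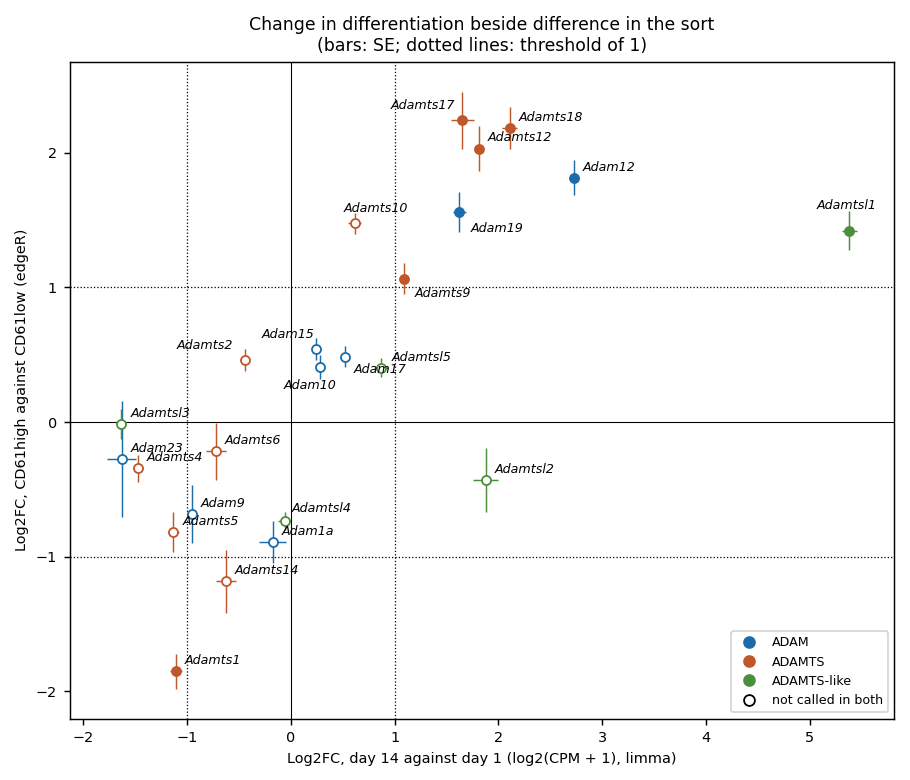
Log2FC at day 14 against day 1 (horizontal) beside Log2FC in CD61high against CD61low cells (vertical) for the 24 named members tested in both; bars are standard errors, colours the 3 families, filled points members called in both and dotted lines the threshold of 1. The 7 filled points at upper right are *Adam12*, *Adam19*, *Adamts9*, *Adamts12*, *Adamts17*, *Adamts18* and *Adamtsl1*, and *Adamts1* is the filled point at lower left.

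Levels of different genes were compared per length. In TPM, Salmon's measure per transcript length, *Adam15* was the highest member in both sorted groups, at 132 ± 0.765 TPM in CD61low and 176 ± 18.8 TPM in CD61high cells (SD, n = 3). The retained-intron Adam15-208, of only 758 bases, held 11.4 ± 1.30% and 14.9 ± 1.47% of its counts, and short transcripts weigh more per length. In CD61low cells *Adam15* was followed by *Adam10* at 62.1 ± 7.13 and *Adamts10* at 61.8 ± 7.48 TPM, which do not differ beyond their spread, and then by *Adamtsl4* at 39.9 ± 1.86 and *Adamtsl5* at 36.6 ± 0.792 TPM. In CD61high cells *Adamts10* was second at 143 ± 7.82 TPM, and *Adam10* at 65.5 ± 10.4, *Adamts12* at 63.0 ± 14.7 and *Adam12* at 61.5 ± 9.44 TPM followed within each other's spread. *Adamts12* thus stood at rank 11 of the members in CD61low and rank 4 in CD61high cells, *Adam12* at ranks 9 and 5, and *Adamts1* at ranks 10 and 17.

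Per kilobase of gene length, on the CPM of the differentiation experiment, *Adam10* ranked first at all 4 days, at 40.7 CPM per kilobase at day 1 and 49.3 CPM per kilobase at day 14. *Adam9* and *Adamtsl3* followed at day 1 at 36.3 and 36.0, on the same scale. At day 14 *Adam10* was followed by *Adamts12* at 43.0 and *Adamtsl1* at 20.1, the latter having been at rank 23 at day 1. *Adam15*, the highest member in the sort, stood at ranks 6, 4, 6 and 7 at days 1, 7, 10 and 14. The lengths are the ones in the deposited table, and no error was derived for these means of 2.

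The transcripts that carried the members were read from Salmon's estimates, which split reads between overlapping transcripts and are not direct counts. *Adam1a* and *Adamts5* have 1 transcript in the sorted files and are left out of this comparison. For 8 of the 19 members whose most abundant transcript was compared, that transcript held over 90% of the counts in both groups, as in *Adam10*, *Adam12*, *Adam19*, *Adamts12* and *Adamtsl3*. The share of the most abundant transcript did not overlap between the groups in 2 of the 19, *Adam15* and *Adam9*, beside 13.6% of the 9632 genes compared the same way, so this count is no more than the background. Adam15-202 held 65.6 ± 2.70% of *Adam15* counts in CD61low and 53.4 ± 0.592% in CD61high cells (SD, n = 3), while Adam15-201 held 7.10 ± 1.48% and 14.6 ± 3.82%. With 3 against 3 libraries an exact permutation test cannot go below p = 0.10, the value both genes reached (two-sided, adjusted p = 0.76 over 19 members).

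Among the named members, *Adamtsl1* had the lowest share of its counts in coding transcripts, a mean of 0.982% over the sorted libraries. The transcript Adamtsl1-202, which is 6278 bases long and annotated as a retained intron, held 98.6% to 99.6% of its counts in the 3 CD61low and 97.3% to 99.6% in the 3 CD61high libraries. Over the 6 libraries together it took 8206 of 8294 counts, and the coding transcripts from the start of Adamtsl1-203 took 79, or 0.947%. Its start lies 223078 bases downstream of that of Adamtsl1-203 (windows printed above), so the difference of *Adamtsl1* in the sort was a difference in counts assigned to this downstream transcript. The deposited values of the differentiation experiment are per gene, so whether the rise over the days has the same source was not tested.

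*Adamts10* and *Adamtsl5* were also measured mostly outside coding transcripts. In *Adamts10*, Adamts10-207, annotated for nonsense-mediated decay, held 34.6 ± 1.56% in CD61low and 34.1 ± 1.28% in CD61high cells, the retained-intron Adamts10-208 held 21.6 ± 2.43% and 16.9 ± 1.61% with no overlap between the groups, and the coding Adamts10-201 held 11.8 ± 4.96% and 15.1 ± 2.02% (SD, n = 3). Another retained intron, Adamts10-212, leaned the other way, at 17.5 ± 3.26% and 23.0 ± 3.35%, with overlap. In *Adamtsl5*, the retained-intron transcript Adamtsl5-203 held 75.6 ± 2.32% and 75.4 ± 1.62%. In *Adamts18* the decay-annotated Adamts18-204 held 36.3 ± 3.02% in CD61high cells, and 72.0%, 0% and 55.6% in the 3 CD61low libraries, whose range takes in the CD61high values.

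**Figure D4:**
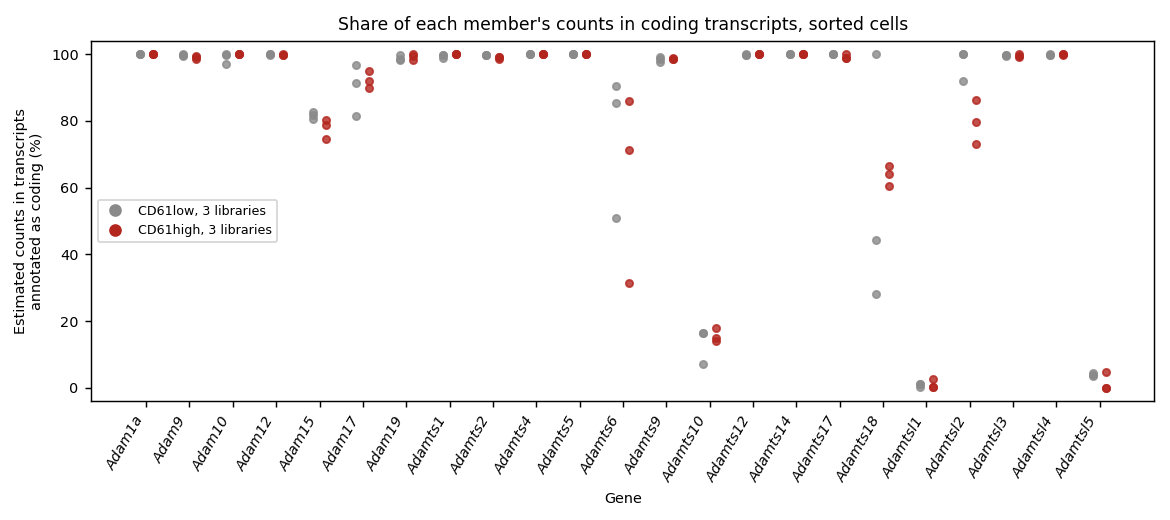
Share of each member's estimated counts held by transcripts annotated as protein coding, in percent, for the 23 named members with at least 200 counts over the 6 sorted libraries; each point is a library (grey CD61low, red CD61high). Most members are near 100%, while *Adamtsl1* (mean 0.982%), *Adamtsl5* (2.79%) and *Adamts10* (14.6%) are low in both groups.

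Several members overlap other genes, and the strand setting of the counting is not given in the sources used here, so reads in the shared stretches cannot be told apart. *Adam9* shares 9.10% of its exon bases with *Tm2d2* at 47.7 CPM, and *Adam17* 3.99% with *Iah1* at 24.6 CPM, both on the opposite strand. *Adam1a* shares 22.1% of its exon bases with Gm42878 on its own strand, which read 6.13 CPM in the sort. *Adam15*, *Adam19* and *Adamts9* overlap antisense transcripts that were measured at 0.225 CPM or less over the days.

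The genes that activate ADAM and ADAMTS proteins or carry them to the surface were counted in the same fits. Of 16 such genes 12 were tested, and 1 was called at day 14 against day 1 (8.33%, beside 13.4% of all genes), *Pcsk6*, a proprotein convertase of the secretory pathway, which went from 42.6 ± 1.06 to 908 ± 11.8 CPM (SD, n = 2; Log2FC 4.38). In the sort 3 of 12 were called (25.0%, beside 9.22% of all genes). *Pcsk6* was higher in CD61high cells, at 657 ± 45.8 against 245 ± 37.1 CPM (SD, n = 3; Log2FC 1.43). *Furin*, the convertase that removes the prodomain of many members, passed the test downward over the days (Log2FC -0.44) and upward in CD61high cells (0.35). Most of its value in the sort lies within the shift of 0.30 under scaling by library size alone, so its direction there depends on the scaling. The tetraspanins *Tspan15* and *Tspan33*, partners of ADAM10, were called lower in CD61high cells, *Tspan15* at 4.14 ± 0.539 against 9.89 ± 1.30 CPM (Log2FC -1.25), though both had passed upward at day 14 against day 1, at 0.41 and 0.78. Of the other such partners, *Tspan14* passed upward in both comparisons, at 0.73 and 0.67, *Tspan5* passed downward in both, at -0.82 and -0.68, and *Tspan17* passed downward at day 14 alone, at -0.37. *Rhbdf1* and *Rhbdf2*, the iRhom carriers of ADAM17, passed in neither, with Log2FC between -0.21 and 0.22.

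Of 12 genes for inhibitors and clearance receptors, 8 were tested over the days and 4 were called at day 14 against day 1, beside 13.4% of all genes: *Reck* and *Sdc4* higher, *Timp2* and *Spock2* lower. *Reck*, a membrane-anchored inhibitor of ADAM10, rose from 12.1 ± 0.0670 to 58.7 ± 2.30 CPM (SD, n = 2). In the sort 2 of 7 were called, beside 9.22% of all genes. *Timp3*, the main tissue inhibitor of ADAM17 and the aggrecan-cutting ADAMTS proteases, was lower in CD61high cells, at 101 ± 12.3 against 284 ± 28.8 CPM (SD, n = 3; Log2FC -1.50, adjusted p = 1.9e-06 in edgeR), and *Timp1*, which inhibits ADAM10, was higher at 108 ± 6.74 against 52.4 ± 2.40 CPM. The Log2FC of *Timp1*, 1.05, exceeded the threshold by less than the shift of 0.30 under scaling by library size alone. *Timp3* did not pass at day 14 against day 1, with 228 ± 12.9 against 236 ± 3.53 CPM (SD, n = 2), but it passed downward at day 7 (Log2FC -0.42) and upward from there to day 10 (0.22).

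Of 19 matrix substrates of ADAMTS proteases 15 were tested, and 7 were called at day 14 against day 1, beside 13.4% of all genes, *Vwf* higher and *Col3a1*, *Comp*, *Fbn1*, *Fbn2*, *Ltbp1* and *Vcan* lower. *Fbn1*, which encodes the main fibrillin, fell from 66.9 ± 1.26 to 4.50 ± 0.559 CPM, and *Vcan*, which encodes versican, from 16.3 ± 0.678 to 4.08 ± 1.45 CPM (SD, n = 2). In the sort 13 of the 15 were called, beside 9.22% of all genes. Higher in CD61high cells were *Bgn*, *Col1a1*, *Col1a2*, *Col2a1*, *Comp*, *Fn1*, *Ltbp1* and *Vwf*, and lower were *Col3a1*, *Fbn1*, *Fbn2*, *Vcan* and *Vegfc*. Scaling by library size alone lowers every Log2FC by 0.30. *Bgn* (1.27), *Fn1* (1.17) and *Ltbp1* (1.07) were less than that above the threshold of 1. The median Log2FC of the 15 was 1.07 in the sort and -0.47 over the days. *Acan*, which encodes aggrecan, was at 60.03 ± 0.134 CPM at day 1, fell to 27.7 ± 1.36 CPM at day 10 and was called higher from there to day 14, at 84.0 ± 13.4 CPM (SD, n = 2; Log2FC 1.56), while day 14 against day 1 passed without a call (0.47). It did not pass in the sort (0.35, adjusted p = 0.24 in edgeR). *Col1a1* is also on the osteoblast list, and *Col2a1* and *Acan* on the chondrocyte list, whose sums moved with CD61 as given above.

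Of 30 membrane substrates of ADAM10 and ADAM17, 21 were tested in each experiment. At day 14 against day 1, 7 were called (33.3%, beside 13.4% of all genes), with *Mertk*, *Notch3* and *Tgfa* higher and *Cx3cl1*, *Jag1*, *Sdc1* and *Vcam1* lower. *Tgfa*, a ligand of the EGF receptor shed by ADAM17, rose from 4.80 ± 0.891 to 296 ± 2.10 CPM (SD, n = 2; Log2FC 5.69). In the sort 7 were called, beside 9.22% of all genes, *Tgfa* higher at 415 ± 39.9 against 114 ± 14.6 CPM (SD, n = 3) and *Csf1*, *Cx3cl1*, *Hbegf*, *Jag1*, *Notch1* and *Vcam1* lower. *Tgfa* was called higher and *Cx3cl1*, *Jag1* and *Vcam1* lower in both comparisons.

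The 4 tested members that were not named stayed low. *Adam8*, a protease of blood cells and osteoclasts, passed downward at day 14 against day 1 (Log2FC -0.72) and did not pass in the sort (-0.65, adjusted p = 0.049 in edgeR). *Adamts7*, the relative of *Adamts12* that also cuts COMP, had a Log2FC of 0.49 at day 14, which passed, and -1.36 in the sort, which did not (adjusted p = 0.017 in edgeR). *Adamts13*, the protease of von Willebrand factor, had a Log2FC of 1.21 in the sort that did not pass (adjusted p = 0.012 in edgeR). *Adam11*, a member without catalytic activity, passed in neither comparison.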

How the data were processed

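RNA was sequenced from Ocy454 cells, and the paper states polyA selection for the sorted libraries. The CPM values of the days, for 39179 genes, were deposited by the authors after STAR mapping and HTSeq-count; 100% of values lay within 0.01 of a whole number of reads, which were recovered. For the sort, the deposited Salmon output (GRCm39, release 104, paired-end) holds estimated counts and TPM per transcript. Tool versions are not given in the sources used here. Estimated counts of 115556 of 116747 transcripts were summed over 35886 genes with GENCODE M39 and rounded to whole numbers.

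Values of log2(CPM + 1), for genes above 1 CPM in at least 1 of the 8 libraries, were compared with limma 3.58.1 (trend) over all 8 libraries. The sort was tested with edgeR 4.0.16 (quasi-likelihood, TMM over all genes before a filter of at least 5 normalized counts in all 6 libraries) in R 4.3.3. Adjusted p-values carry Benjamini-Hochberg adjustment, over all genes tested in limma and edgeR and over the 19 members compared for transcript shares. Calls needed an adjusted p below 0.01 and a Log2FC beyond 1. The 2 libraries of a day are biologic duplicates and the 3 of a sorted group came from separate groups of cells of the same line, so p-values measure the spread between these samples of 1 line. Both tests were first run on simulated counts with a fixed spread and changes in well-counted genes alone. That setting does not cover members with few reads, and its outcome is not given here. Members named in the text have a mean of at least 5 CPM in either experiment or a call in any of the 5 comparisons. The members, gene lists and marker lists were chosen with earlier results of these data known. Levels between genes use TPM, or CPM per kilobase of the deposited length. Coordinates and sequences are from GRCm39. Protein sequences were not used here, and a few items are not reported here. Python 3.11.15, pandas 2.3.3, scipy 1.17.1 and matplotlib 3.10.9 were used. Alternatives were other pseudocounts, filters, scalings and tools (DESeq2 1.42.0), a replicate block, and each library left out.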

Additional observations from a re-analysis of the deposited data

How the results depend on the processing

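Without the fold threshold, 23, 20, 22, 26 and 18 members passed, in the order of day 7 against day 1, day 10 against day 7, day 14 against day 10, day 14 against day 1 and the sort. Other alternatives kept the counts of calls within 1.5 times, except that a mean of at least 5 CPM left 2 calls at day 10 against day 7 in place of 4. With each library left out, counts ranged from 13 to 13, 4 to 4, 5 to 7, 15 to 16 and 9 to 11. Correlations of same-numbered libraries showed no consistent pairing (-0.321, 0.220 and -0.0614 in the sort and 0.00605 to 0.0866 over the days), and a replicate block left 13, 4, 7, 15 and 10 calls. The shares of all genes called under these alternatives are not given here, so these counts are no result about the members alone. The paper describes sorting both CD61 groups from 3 independent groups of cells. Whether the replicate numbers name these groups is not given in the sources used here. Of 1564 values of the 26 named members under the alternatives, 63 no longer passed where the main test had. Of those 63, 1 belonged to a called pair, and 26 other values passed where the main test had not. A further 16 changed sign, none among the 103 pairs of a named member and a comparison that had passed. They were *Adamts14* at day 7 against day 1 (0.0190 with quantile normalization, 0.0102 with edgeR on recovered reads and 0.00855 with TMM scaling of those reads, an alternative chosen after seeing the data), *Adam23* in the sort (0.485 with an effective length offset) and values with 1 library left out. With 1 library left out, *Adamtsl4* ranged from -0.0621 to 0.0523 (day 10 against day 7), *Adam23* ranged from -0.365 to 0.0140 (day 10 against day 7), *Adamts16* ranged from -0.0753 to 0.0229 (day 10 against day 7), *Adam23* ranged from -0.0586 to 0.321 (day 14 against day 10), *Adamts16* ranged from -0.0229 to 0.173 (day 14 against day 10), *Adam23* ranged from -0.551 to 0.151 (CD61high against CD61low), *Adamts6* ranged from -0.419 to 0.0317 (CD61high against CD61low) and *Adamtsl3* ranged from -0.137 to 0.0760 (CD61high against CD61low). The causes were not tested. At day 14 against day 1, *Adamts15* and *Adamts16*, near 0 reads at one of the days, had a Log2FC of 3.92 and -3.58 with a pseudocount of 0.1, where 1.38 and -1.38 are reported. Precision is limited by 2 libraries a day and, for genes below 1 CPM, by depth.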
